A study of Mus musculus with 8 samples.

Results

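The genes described here make fatty acids from simple carbon units: *Fasn*, *Acaca*, *Acly*, *Scd1*, *Scd2*, *Thrsp*, *Olah*, *Srebf1* and *Me1*. They were chosen by name, as 9 of the 27998 genes counted, and each was followed across the cell clusters of the mouse mammary gland. The study sorted mammary epithelial cells of C57BL/6N mice at 4 stages and sequenced their RNA cell by cell, with 2 mice per stage and 1 library per mouse. Nulliparous (NP) females were 8 weeks old, gestation (G) glands were taken on day 14.5, lactation (L) glands on day 6, and post-involution (PI) glands 11 days after the pups were weaned naturally. No mouse carried a genetic change or received a treatment, and ages other than that of the NP females were not given in the sources used here. By vaginal smears, the paper classed both NP mice and the second PI mouse as in oestrus and the first PI mouse as in dioestrus. The part of oestrous stage in the results below was not tested. Cells positive for EpCAM and negative for CD31, CD45 and Ter119 were sorted, which enriches epithelium and removes most blood and vessel cells.

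De novo fatty acid synthesis starts from citrate. *Acly* cleaves citrate to acetyl-CoA in the cytosol, *Acaca* (acetyl-CoA carboxylase) carboxylates it to malonyl-CoA, and *Fasn* (fatty acid synthase) joins these units into a growing chain with NADPH, part of which the malic enzyme *Me1* supplies. In the secretory cells of the mammary gland the thioesterase *Olah* releases the chain early, which gives the medium-chain fatty acids of milk fat. *Thrsp* (Spot 14) is a small protein that promotes synthesis in lipogenic tissues, *Scd1* and *Scd2* desaturate the finished chains, and *Srebf1* encodes SREBP-1, a transcription factor that switches on many genes of the pathway.

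The clusters are those of the authors. Luminal cells fall into luminal progenitors (C6 in NP, C7 in PI), hormone-sensing progenitors (C2 in NP, C1 in PI), differentiated hormone-sensing cells (C4 in NP, C3 in PI, C5 in G), alveolar progenitors (C10 in G, C11 in L) and differentiated alveolar cells (C8 in G, C9 in L). Basal cells fall into C12 (NP and PI), C13 (G), the myoepithelial cluster C14 (L) and the *Procr*+ cluster C15 (L), and a few non-epithelial clusters remained, among them C17 (immune), C18 (fibroblast) and C19 (endothelial). Counts are unique molecular identifiers (UMIs), each marking 1 captured transcript. They were summed over the cells of a cluster within each mouse, so that the mouse is the replicate, and levels are CPM, counts scaled by the total UMIs of that sum. Changes between stages are log2 fold changes ± standard error (SE) from the quasi-likelihood test of edgeR, fitted to the sums, and p-values carry the Benjamini-Hochberg adjustment over every gene tested, with a threshold of 0.05. Clusters were formed from the same transcripts, so values of different clusters in the same mouse are given as a description, with no test. Differences between the stage changes of cell classes were tested, but they also rest on such values. Their p-values do not allow for the forming of the clusters.

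The authors' filters passed 25010 cells of the 8 libraries, 1 of them without a barcode in the matrices, and the libraries held between 13306760 and 34552742 UMIs, with median depths per cell from 3770 UMIs in an L mouse to 9624 in a G mouse. Barcodes of 791 annotated cells occurred in more than 1 library, and 0 of them were among the passing cells. Markers followed the cluster names: the hormone-sensing markers summed to 1882 CPM or more in C1 to C5 and to 842 CPM or less elsewhere, and basal markers reached 37531 and 33763 CPM in C14. The alveolar clusters of L also held transcripts of other cells. The basal markers (*Krt5*, *Krt14*, *Acta2*, *Oxtr* and *Myh11*) summed to 2252 and 976 CPM in C9 and to 5377 and 3866 CPM in C11 of the 2 L mice, whereas C8 held 138 and 130 CPM and C10 held 169 and 236 CPM in the G mice. Immune markers summed to 258.5 and 56.6 CPM in C9, against 57.7 and 69.7 CPM in C8. Of 10 genes of the dissociation stress response, 9 were higher in L than in G in both alveolar cell classes. The part of these differences in the results below was not tested. C9 was also small, with 42 and 47 cells.

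On GRCm38, *Fasn* spans chr11:120805846-120824547, *Acly* chr11:100476353-100528000 and *Srebf1* chr11:60199089-60222581, all on the minus strand, and *Acaca* spans chr11:84129672-84401651 on the plus strand. *Scd1* (chr19:44394455-44407879, minus) and *Scd2* (chr19:44293674-44306864, plus) are neighbours on chromosome 19. *Thrsp* lies at chr7:97412938-97417730, *Olah* at chr2:3341982-3397210 and *Me1* at chr9:86581371-86695953, all on the minus strand. Their Ensembl identifiers, in the order in which the genes are named at the start, are ENSMUSG00000025153, ENSMUSG00000020532, ENSMUSG00000020917, ENSMUSG00000037071, ENSMUSG00000025203, ENSMUSG00000035686, ENSMUSG00000026645, ENSMUSG00000020538 and ENSMUSG00000032418. RefSeq start sites (GRCm38.p6) were at hand for 7 of the 9 genes, all but *Scd1* and *Scd2*. Sequence before the start is shown for *Fasn*, *Acly* and *Olah* as 3 examples from the levels that follow. *Fasn* rose sharply in the differentiated alveolar cells of lactation, *Acly* was detected in each sum of cells, and *Olah* stood highest in differentiated alveolar cells. Each is printed 5′ to 3′ on the strand of the gene, all 3 lie on the minus strand, and capitals mark motif matches.
*Fasn*: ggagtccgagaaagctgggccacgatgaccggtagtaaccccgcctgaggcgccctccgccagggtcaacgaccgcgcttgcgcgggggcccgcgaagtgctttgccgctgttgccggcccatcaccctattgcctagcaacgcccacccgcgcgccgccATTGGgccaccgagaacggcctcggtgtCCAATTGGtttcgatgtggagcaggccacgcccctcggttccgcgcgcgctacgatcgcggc
*Acly*: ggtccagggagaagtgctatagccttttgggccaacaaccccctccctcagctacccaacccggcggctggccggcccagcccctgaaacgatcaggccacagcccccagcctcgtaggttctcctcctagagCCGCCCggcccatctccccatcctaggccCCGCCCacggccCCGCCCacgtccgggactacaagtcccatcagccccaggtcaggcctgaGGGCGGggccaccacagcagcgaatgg
*Olah*: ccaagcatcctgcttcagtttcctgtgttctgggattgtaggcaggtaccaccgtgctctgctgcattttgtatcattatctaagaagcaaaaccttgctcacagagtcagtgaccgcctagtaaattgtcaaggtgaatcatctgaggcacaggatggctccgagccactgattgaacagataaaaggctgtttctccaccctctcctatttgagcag
The *Fasn* run covers chr11:120824548-120824797, the 250 bases just before its start, and the *Acly* run covers chr11:100528001-100528250 in the same position. Neither overlaps an annotated exon. The *Olah* run covers chr2:3366601-3366819 and stops short of the start, since the last 31 bases of its 250-base window lie in annotated exon sequence. The RefSeq start of *Olah* lies inside the longer gene of the Ensembl annotation, so this run is within the gene span. Searched on both strands were CCAAT (the CCAAT box), CACGTG (an E-box), GGGCGG (a GC box), TCACNCCAC (a sterol regulatory element) and TTCNNNGAA (a GAS element, the site type of STAT factors). The *Fasn* window held 3 matches to CCAAT, at 90, 62 and 59 bases before the start, the last 2 of which overlap, and CCAAT occurred in 33.8% of the 32851 windows in the table. The *Acly* window held 4 matches to GGGCGG, a motif of 32.7% of windows. The *Olah* window held none of the 5 motifs. CACGTG, TCACNCCAC and TTCNNNGAA, found in 6.02%, 1.05% and 7.02% of windows, were in no window of the 7 genes. A match is a description of the letters and not evidence of a bound site.

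Among the epithelial clusters, 8 of the 9 genes had their highest mean level in the differentiated alveolar cells of lactation, C9, and *Scd2* had it in the hormone-sensing cells of gestation. The genes that feed and build the chain were found in every epithelial class. *Acly* was at 140 ± 0.296 CPM (mean ± SD, n = 2 mice, as throughout) in C9 and 129 ± 18.3 CPM in C8, which overlapped, followed by C5 at 87.4 ± 14.1 CPM. It was lowest in the basal cells of gestation, at 17.4 ± 0.0387 CPM. *Acaca* was at 86.6 ± 23.3 CPM in C9, and its next levels, 33.0 ± 20.1 CPM in C11 and 32.3 ± 8.20 CPM in C8, were followed by the basal clusters C12 of NP (25.98 ± 1.81), C13 (25.8 ± 3.61) and C14 (24.2 ± 2.67), all within the range of the C11 mice. These basal cells held more *Acaca* than the differentiated hormone-sensing cells, which were at 7.24 ± 0.867 CPM in NP and 6.76 ± 1.46 CPM in PI. *Me1* had a different order: C7, the luminal progenitors after involution, reached 118 ± 1.30 CPM, between the 2 L mice of C9 (121 ± 18.9 CPM), and C1, C11 and C6 followed at 73.8 ± 1.76, 72.9 ± 1.62 and 69.4 ± 8.56 CPM.

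*Fasn* reached 297 and 147 CPM in the 2 L mice in C9, and stood at 65.4 and 41.9 CPM in C8 of the G mice, and at 33.7 and 29.3 CPM in C10. Both L mice lay above both G mice, but they differed from each other by more than the lower of them differed from either G mouse. It was next in C5 at 39.5 ± 9.89 CPM, and most other clusters lay between 7.13 ± 1.87 CPM (C6) and 31.5 ± 3.07 CPM (C10). Among the smallest sums, C12 of PI stood at 36.5 ± 11.8 CPM from 27 and 53 cells, and C15 at 3.88 ± 5.49 CPM. *Olah* was far more restricted. It reached 360 and 170 CPM in C9, 125 and 85.6 CPM in C8 and 66.6 and 56.4 CPM in C11, then 24.3 and 15.5 CPM in C5 (3 and 4 UMIs), while C7, the highest cluster outside G and L, was at 8.23 ± 0.987 CPM. In the basal cells of NP it was at 0 UMIs in both mice. *Thrsp* followed the same outline, with 479 and 557 CPM in C9 and 429 and 215 CPM in C8, a drop to 41.9 ± 12.7 CPM in C11, and 0 UMIs in C6 of both NP mice.

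The desaturases had their peaks in different clusters. *Scd1* was at 1191 and 1594 CPM in C9 and at 1168 and 556 CPM in C7, so that the first PI mouse came close to the lower L mouse on this scale, and it fell to 1.55 ± 2.20 CPM in C15. *Scd2* was at 130 and 135 CPM in C5, above each other epithelial sum, and C15, C9 and C14 came next at 61.9 ± 19.5, 59.9 ± 10.6 and 57.9 ± 12.3 CPM, which overlapped. It was low in the luminal progenitors, at 3.96 ± 2.61 CPM in C6 of NP and 7.64 ± 1.05 CPM in C7, and in C12 of PI, at 5.28 ± 7.47 CPM; the few C6 cells of a PI mouse, 22 in all, held 39.5 CPM. In NP mice *Scd1* was 2.99 and 5.74 times as high in C6 as in C4 of the same mouse, whereas *Scd2* was at 0.0855 and 0.226 of its C4 level. *Srebf1* stood at like levels in most clusters. It was at 93.1 ± 30.4 CPM in C9 and 88.0 ± 3.89 CPM in C8, which overlapped, and the other clusters lay between 24.7 ± 1.29 CPM (C12 of NP) and 48.8 ± 17.99 CPM (C3), apart from C12 of PI at 12.3 ± 17.4 CPM and C15 at 12.2 ± 4.68 CPM.

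**Figure D1:**
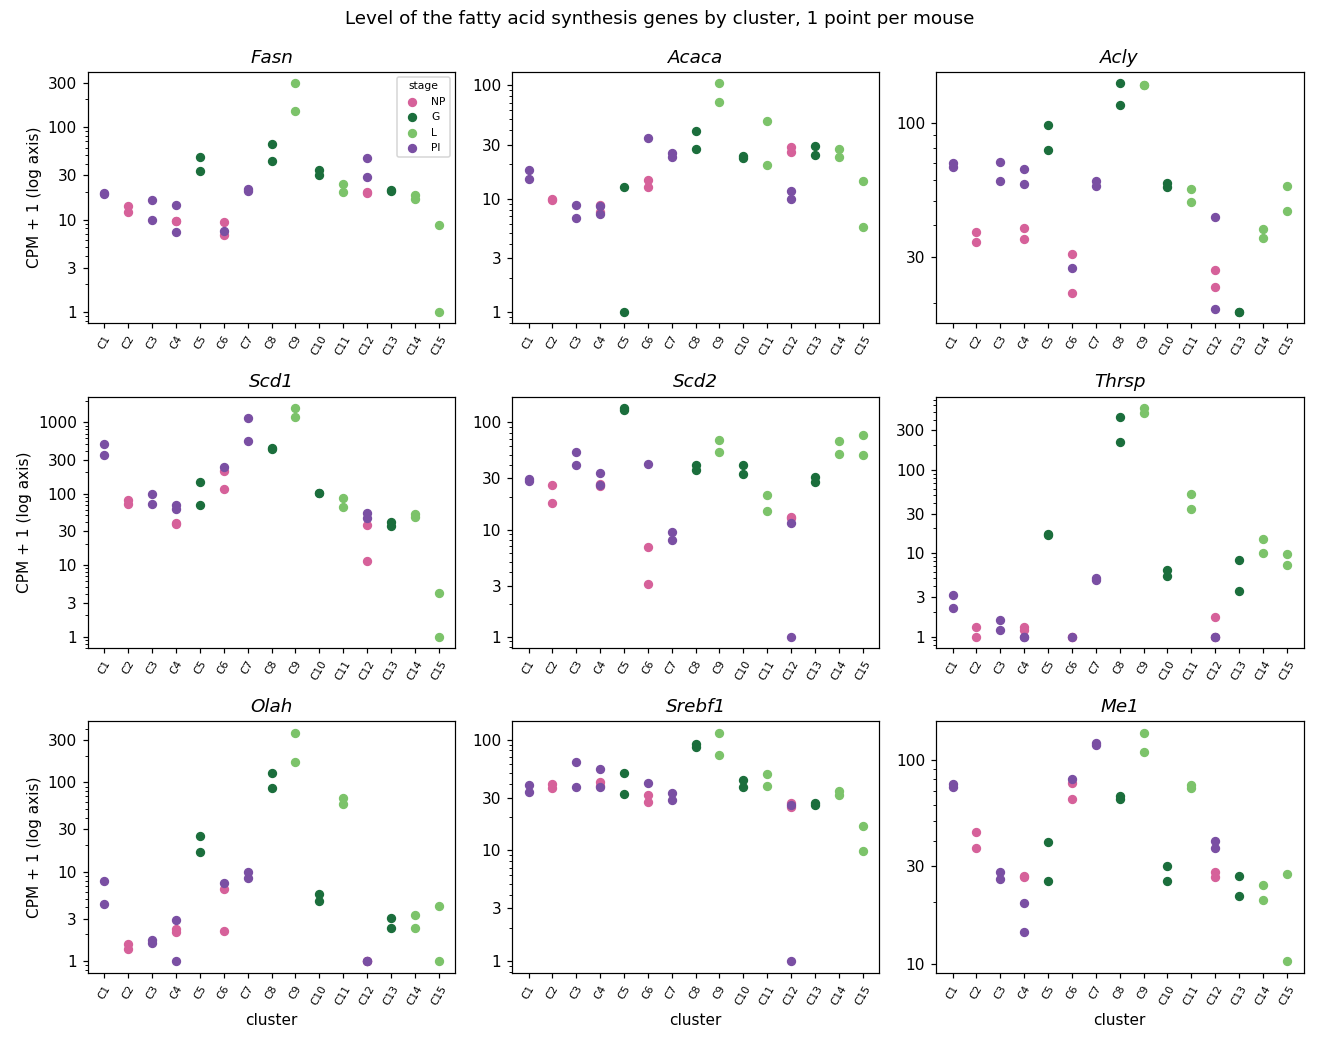
Level of each of the 9 genes in clusters C1 to C15 (x axis), as CPM + 1 on a log axis (y axis), with 1 point per mouse and colours for the stages NP, G, L and PI; only sums of 20 or more cells are drawn. *Olah* and *Thrsp* are highest in C8 and C9, followed by C11, *Scd2* is highest in C5, and the *Srebf1* means of the luminal clusters other than C8 and C9 lie between 28.6 and 48.8 CPM.

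CPM depend on what else is counted. Of the UMIs in C9 of L, 447538 and 417202 CPM came from 8 genes of milk proteins, and in C8 of G these genes made up 96653 and 57393 CPM. Counted over the UMIs outside these 8 genes, *Fasn* was at 395 ± 202 CPM in C9 and 58.4 ± 19.8 CPM in C8, *Scd1* at 2446 ± 410 and 465 ± 0.937 CPM, and *Acly* at 247 ± 8.80 and 141 ± 24.0 CPM. *Srebf1* was at 163 ± 47.3 and 95.5 ± 7.09 CPM. On that scale the levels of *Acly* and *Srebf1* in C9 and C8 no longer overlapped. The 2 L mice held 2156 and 2736 CPM of *Scd1* in C9, and the PI mice held 1184 and 564 CPM in C7. *Me1* was at 214 ± 41.3 CPM in C9 and 119.9 ± 1.41 CPM in C7. *Scd2* was at 105 ± 14.7 CPM in C9, above the 61.9 ± 19.5 CPM of C15 and the 57.98 ± 12.3 CPM of C14, so that the ties of C9 with C7, C14 and C15 held only over all UMIs.

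Day 6 of lactation brought more of the pathway to the differentiated alveolar cells. All 9 genes were higher in C9 of L than in C8 of G, where 9.26% of the 11858 genes tested were higher and 9.16% lower. The median change of the 9 genes was 1.80 on the log2 scale, against -0.16 over all genes tested. *Fasn* rose by 2.90 ± 0.29 (adjusted p = 3.83e-05), *Scd1* by 2.60 ± 0.23 (1.13e-05), *Acaca* by 2.28 ± 0.26 (0.000106) and *Olah* by 2.19 ± 0.29 (0.000295). *Me1* rose by 1.80 ± 0.17, *Scd2* by 1.61 ± 0.22 and *Thrsp* by 1.57 ± 0.29. For each of these genes both L mice lay above both G mice. The share of all genes whose mice lay apart in this way was not counted, so it is given as a description, here and in the comparisons below. The smallest rises were those of *Acly* (1.01 ± 0.18, adjusted p = 0.00274) and *Srebf1* (1.01 ± 0.21, adjusted p = 0.00669), and their CPM overlapped between the stages: *Srebf1* was at 90.8 and 85.3 CPM in G and at 71.6 and 115 CPM in L.

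Both of these depend on the scaling. The TMM normalisation of edgeR sets the bulk of genes near 0, whereas scaling to the total of UMIs, an alternative chosen after the data were seen, moved the median of all genes from -0.16 to -1.06 and the split of higher and lower genes from 1098 and 1086 to 556 and 5566. With it *Acly* changed by 0.11 (adjusted p = 0.62) and *Srebf1* by 0.11 (adjusted p = 0.68). The other 7 genes stayed higher, with *Fasn* at 2.02, *Scd1* at 1.70, *Acaca* at 1.40 and *Olah* at 1.31. *Srebf1* also missed the threshold without the second L mouse, at 0.53 (adjusted p = 0.17).

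Alveolar progenitors changed in fewer of the genes. Between C10 of G and C11 of L, 3 of the 9 genes were higher and the other 6 did not pass, where 28.9% of 8398 genes passed, 16% higher and 12.9% lower. The median change of the 9 genes was 0.39 and that of all genes tested -0.03. *Olah* rose by 4.17 ± 0.32 (adjusted p = 2.24e-05), from 4.59 and 3.74 CPM to 66.6 and 56.4 CPM. *Thrsp* rose by 3.42 ± 0.38 (adjusted p = 0.000215), from 5.36 and 4.37 CPM to 50.9 and 32.9 CPM. *Me1* rose by 1.73 ± 0.22 (adjusted p = 0.00043), from 24.5 and 29.3 CPM to 74.0 and 71.7 CPM. In each of these both L mice lay above both G mice. The core enzymes did not pass the test: *Fasn* was at -0.26 ± 0.28 (adjusted p = 0.51), *Acly* at 0.18 ± 0.20, *Scd1* at -0.13 ± 0.19 and *Acaca* at 0.91 ± 0.39, the last with L mice at 47.2 and 18.8 CPM on both sides of the G mice. *Scd2* was at -0.77 ± 0.30 (adjusted p = 0.080) and passed with total UMI scaling at -1.08 (adjusted p = 0.020), a scaling that moved the median of all genes to -0.33 and the split of higher and lower genes from 1342 and 1082 to 928 and 2102; it also turned the sign of *Acly*, to -0.13.

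The difference between both alveolar changes was tested in 1 fit with the mouse as a term. Of the 9 genes, 6 passed this test in edgeR, where 3.58% of 8798 genes did (1.63% higher and 1.95% lower). The rise in differentiated cells exceeded that in progenitors by 3.40 ± 0.31 for *Fasn* (adjusted p = 4.36e-06), 2.87 ± 0.26 for *Scd1*, 2.51 ± 0.33 for *Scd2*, 1.62 ± 0.35 for *Acaca* and 1.00 ± 0.25 for *Acly*. *Olah* went the other way, with a rise smaller by 1.82 ± 0.42 in the differentiated cells (difference -1.82, adjusted p = 0.020). *Thrsp* was at -1.66 ± 0.46 (adjusted p = 0.054), and *Me1* at 0.23 ± 0.26. With total UMI scaling, which moved the median of all genes from -0.04 to -0.79 and the split of higher and lower from 143 and 172 to 83 and 2382, *Fasn*, *Scd1*, *Scd2* and *Olah* still passed, *Thrsp* passed at -2.40, *Acaca* and *Acly* no longer did (0.89 and 0.25), and *Me1* turned to -0.52. The *Olah* difference missed the threshold in DESeq2 (adjusted p = 0.0545), without the mouse as a block (0.255), and without the first or the second G mouse (0.208 and 0.0561), at differences between -2.03 and -1.68. *Acly* did not pass in DESeq2 (1.01), without the filter on low counts (0.83), without the block (0.98), without either G mouse (1.16 and 0.83) or without the second L mouse (0.79), and *Acaca* did not pass without the block (1.52) or the second G mouse (1.39).

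**Figure D2:**
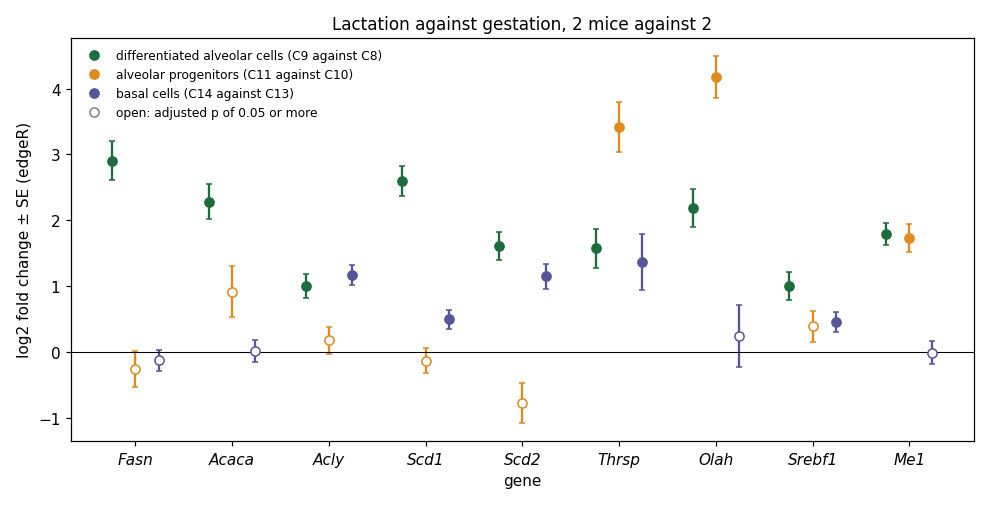
Log2 fold change of L against G (y axis, edgeR, ± SE) of the 9 genes (x axis) in differentiated alveolar cells, alveolar progenitors and basal cells, with 2 mice against 2; open points did not pass an adjusted p of 0.05. *Fasn* is at 2.90 in differentiated cells and at -0.26 in progenitors, whereas *Olah* is at 2.19 and 4.17.

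In droplet data, free RNA of abundant transcripts can be counted in cells that do not make it, and *Csn2*, which encodes beta-casein, was used to set its scale. Alveolar progenitors can make *Csn2* themselves, so its share in C10 and C11 is no measure of free RNA there. In L clusters outside the alveolar cells (C14, C15, C17, C18 and C19) *Csn2* was between 0.202% and 0.401% of its C9 level, and at these shares *Olah* would stand between 0.349 and 1.41 CPM. *Olah* in C11, at 66.6 and 56.4 CPM, was far above that range, and in C14 it was observed at 2.27 and 1.38 CPM against a share of 1.23 and 0.681 CPM. *Csn2* itself reached in C11 26.5% and 25.4% of its C9 level in the 2 L mice. At that share of C9, *Thrsp* would stand at 127 and 142 CPM in C11 and was observed at 50.9 and 32.9 CPM. *Olah* would stand at 95.4 and 43.2 CPM and was observed at 66.6 and 56.4 CPM, below its share in the first mouse and above it in the second. *Fasn* would stand at 78.8 and 37.4 CPM and was observed at 23.1 and 18.8 CPM. *Me1*, by contrast, was above its share of 35.7 and 27.4 CPM in both mice. In C10 of G the *Thrsp* share was 16.4 and 6.41 CPM and the observed level 5.36 and 4.37 CPM. In C13, the basal cells of G, *Olah* was observed at 2.02 and 1.37 CPM against a share of 2.56 and 1.49 CPM. The part of shared RNA in the rise of *Olah* and *Thrsp* in C11 was not tested.

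**Figure D3:**
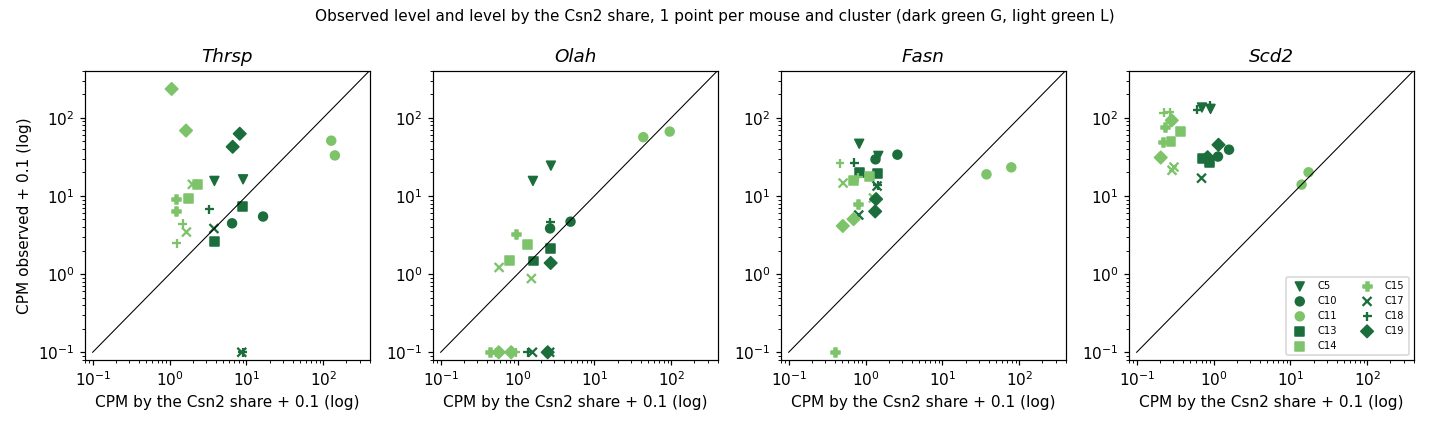
Observed CPM of *Thrsp*, *Olah*, *Fasn* and *Scd2* (y axis, log, 0.1 added) against the CPM each would have at the cluster's share, own expression included, of the *Csn2* level of C8 or C9 in the same mouse (x axis, log, 0.1 added), for G and L clusters with 1 point per mouse; on the diagonal both are equal. *Olah* lies near the diagonal in C10, C11 and C13, *Thrsp* in C11 lies below it and in C19 far above it, and *Scd2* lies above it outside C11.

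The share of single cells with an *Olah* UMI showed the same order. It was 54.4% of 1926 C8 cells (95% exact binomial interval 52.2% to 56.7%) and 42.7% of 1818 C8 cells (40.4% to 45.0%) in the G mice, at median depths of 10900.5 and 8676.5 UMIs per cell. In C13 of the same mice it was 1.52% and 1.01%, at 6201 and 6060 UMIs. In L mice it was 71.4% and 63.8% of C9 cells, 19.01% and 14.6% of C11 cells and 0.992% and 0.741% of C14 cells. The intervals were 55.4% to 84.3% and 48.5% to 77.3% in C9, and 12.9% to 26.4% and 8.01% to 23.7% in C11. Immune cells (C17), which should lack *Olah*, had a share of 0 of 60 and 0 of 86 cells in G, which allows up to 5.0% and 3.49%, and of 0.472% and 0.641% in L, at median depths of 5255.5 and 5416 UMIs, against 3701 and 4148 UMIs in C14, 6691 and 8065 UMIs in C11 and 11602 and 16271 UMIs in C9. The C13 and C14 shares are within the intervals of C17. After thinning to 1000 UMIs per cell, *Olah* was seen in 11.9% and 7.76% of cells in C8, 28.6% and 17.02% in C9, 4.23% and 6.74% in C11 and 0.216% and 0.129% in C14. Intervals cover counting error only.

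Between nulliparous luminal progenitors (C6) and the alveolar progenitors of gestation (C10), the genes moved in both directions. Of 7 tested, 4 were higher and 2 lower, where 24.3% of 9564 genes were higher and 23.2% lower. The median of the 7 was 0.81, against -0.01 over all genes tested. In the same comparison 4 of 4 luminal markers were lower and 3 of 5 basal markers were higher. Of 10 stress genes 6 were higher and 1 lower, and the part of these differences was not tested. *Scd2* rose most, by 3.21 ± 0.37 (adjusted p = 2.84e-05), from 2.11 and 5.81 CPM to 39.0 and 31.8 CPM. *Fasn* rose by 2.09 ± 0.28 (adjusted p = 8.69e-05), from 8.45 and 5.81 CPM to 33.7 and 29.3 CPM, *Acly* by 1.12 ± 0.20 and *Acaca* by 0.81 ± 0.26 (adjusted p = 0.022). *Me1* fell by 1.36 ± 0.19 (adjusted p = 0.000148), from 63.4 and 75.5 CPM to 24.5 and 29.3 CPM. In each of these genes the mice of the stages did not overlap. *Scd1* was lower by 0.68 ± 0.24 (fold change -0.68, adjusted p = 0.036), but stood at -0.17 without the second NP mouse, which held 209 CPM against 114 CPM in the first. *Acaca* did not pass without the first NP mouse (0.66) or without either G mouse (0.79 and 0.84), nor in DESeq2 (0.81), and *Scd1* did not pass without either G mouse (-0.65 and -0.70). *Srebf1* was at 0.47 ± 0.21 (adjusted p = 0.080). *Thrsp* and *Olah* were too low to be tested: *Thrsp* went from 0 UMIs in both NP mice to 4.86 CPM, at least 9.28-fold above the floor of 3 counts over both mice.

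After involution the luminal progenitors held more of most of these transcripts than before any pregnancy. In C7 of PI against C6 of NP, 7 of 9 genes were higher and 2 did not pass, where 14.2% of 10744 genes were higher and 13.3% lower. The median of the 9 was 1.25 and that of all genes tested -0.01. *Scd1* rose by 2.51 ± 0.33 (adjusted p = 0.000213), from 114 and 209 CPM to 1168 and 556 CPM. *Fasn* rose by 1.52 ± 0.24 (adjusted p = 0.000689), from 8.45 and 5.81 CPM to 20.3 and 19.2 CPM. *Acly* rose by 1.25 ± 0.17, *Acaca* by 0.97 ± 0.20 and *Me1* by 0.86 ± 0.14, the last from 63.4 and 75.5 CPM to 117 and 119 CPM. In all of these both PI mice lay above both NP mice. *Thrsp* was at 0 UMIs in both NP mice and at 3.79 and 4.02 CPM in the PI mice, at least 7.45-fold above the floor of 3 counts over both NP mice. *Olah* rose by 1.52 ± 0.47 (adjusted p = 0.031), but stood at 0.67 without the first NP mouse, whose level was 1.21 CPM against 5.39 CPM in the second, and missed the threshold also without the first PI mouse (1.40) and in DESeq2 (1.47). *Srebf1* was at 0.15 ± 0.17 (adjusted p = 0.57) and *Scd2* at 1.12 ± 0.41 (adjusted p = 0.063). Milk protein genes rose in the same cells, from 770 and 1445 CPM in C6 to 13656 and 14679 CPM in C7. Total UMI scaling moved the split of higher and lower genes from 1524 and 1431 to 1223 and 1827, with *Fasn* among the genes that stayed higher.

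In hormone-sensing progenitors *Scd1* again rose most clearly. In C1 of PI against C2 of NP, 5 of 8 genes tested were higher and 3 did not pass, where 9.45% of 10677 genes were higher and 6.8% lower. The median of the 8 was 0.83 and that of all genes tested -0.02. *Scd1* rose by 2.44 ± 0.18 (adjusted p = 5.09e-06), from 71.3 and 81.2 CPM to 492 and 347 CPM. *Olah* rose by 3.21 ± 0.68 (adjusted p = 0.0081), from 0.387 and 0.578 CPM to 6.88 and 3.38 CPM, a level made of few UMIs. *Acly* rose by 0.94 ± 0.14 and *Me1* by 0.90 ± 0.16, and *Acaca* by 0.77 ± 0.23 (adjusted p = 0.044). *Olah* did not pass without the first NP mouse (2.89), and *Acaca* without either NP mouse (0.75 and 0.79) or the first PI mouse (0.68), nor in DESeq2 (0.80). *Fasn* was at 0.59 ± 0.20 (adjusted p = 0.070), *Scd2* at 0.44 ± 0.22 and *Srebf1* at -0.09 ± 0.15. Milk protein genes were at 6822 and 7332 CPM in C1 and at 197 and 336 CPM in C2.

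In differentiated hormone-sensing cells, C3 of PI against C4 of NP, 3 of 8 genes tested were higher and 5 did not pass, where 8.54% of 11956 genes were higher and 7.54% lower. The median of the 8 was 0.25 and that of all genes tested -0.02. *Scd1* rose by 1.10 ± 0.16 (adjusted p = 0.0006), from 38.2 and 36.3 CPM to 96.9 and 72.1 CPM, *Acly* by 0.79 ± 0.16 and *Scd2* by 0.77 ± 0.16, and in each both PI mice lay above both NP mice. *Fasn* was at 0.30 ± 0.24, *Acaca* at -0.24 ± 0.25, *Me1* at -0.02 ± 0.16, *Srebf1* at 0.20 ± 0.19 and *Olah* at -0.85 ± 0.52, none past the test. *Thrsp* was too low to be tested in either hormone-sensing comparison.

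**Figure D4:**
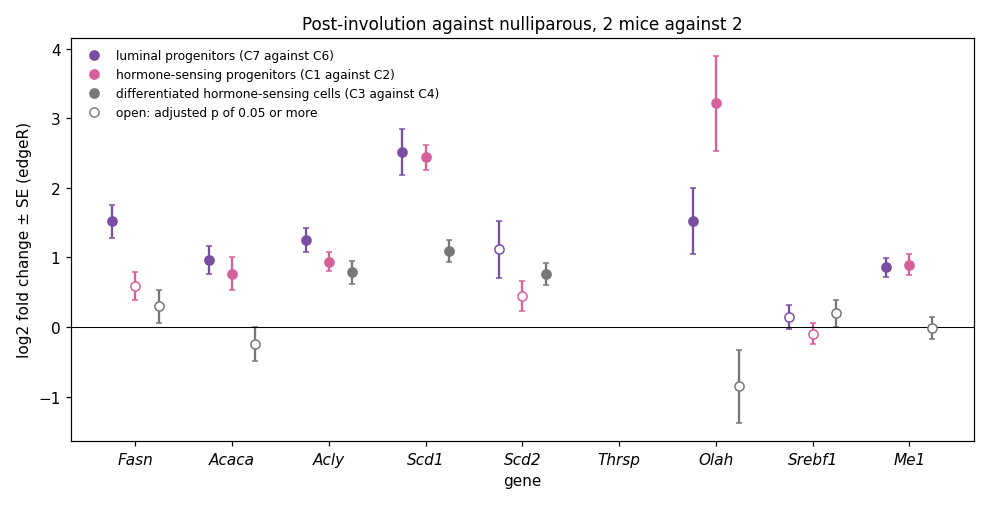
Log2 fold change of PI against NP (y axis, edgeR, ± SE) of the 9 genes (x axis) in luminal progenitors, hormone-sensing progenitors and differentiated hormone-sensing cells, with 2 mice against 2; open points did not pass an adjusted p of 0.05. *Scd1* is higher in all 3 classes, at 2.51, 2.44 and 1.10; *Thrsp* is left out, since it was at 0 UMIs in the luminal progenitors of NP and not tested in the other classes.

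The change in luminal progenitors differed from that in differentiated hormone-sensing cells of the same mice for 6 of the 9 genes, where 13.7% of 12132 genes passed this test in edgeR (7.26% higher and 6.48% lower). *Scd1* rose more in luminal progenitors by 1.34 ± 0.27 (adjusted p = 0.0031), *Fasn* by 1.20 ± 0.33 (0.024), *Acaca* by 1.16 ± 0.29 (0.014), *Me1* by 0.88 ± 0.19 (0.0050) and *Olah* by 2.27 ± 0.70 (0.040). *Thrsp* passed too, but its fitted difference is set against 0 UMIs and gives no size. *Acly*, at 0.48 ± 0.23, *Scd2*, at 0.33 ± 0.38, and *Srebf1*, at -0.06 ± 0.22, did not pass. DESeq2 called 2 of the 9 in this comparison, and without the mouse as a block *Scd1* and *Olah* no longer passed (1.41 and 2.34). *Fasn* did not pass without the second PI mouse (0.89) or the second NP mouse (1.01), and *Acaca* did not pass without the same mice (1.06 and 1.18). *Olah* did not pass without the second PI mouse (2.75) or the first NP mouse (1.65), and *Thrsp* did not pass without the second PI mouse or either NP mouse. Total UMI scaling moved the median of all genes from 0.01 to -0.13 and the split of higher and lower genes from 881 and 786 to 677 and 1205.

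Stages were also compared in basal cells. From C12 of NP to C13 of G, 2 of 8 genes tested were higher and 6 did not pass, where 24.6% of 11074 genes were higher and 22.2% lower. The share of higher genes was thus near that of all genes. Of 10 stress genes 8 were higher, as were 3 of 3 immune and 4 of 6 fibroblast markers tested. All 4 luminal and all 4 hormone-sensing markers were lower, and the part of these differences was not tested. The median of the 8 was 0.14 and that of all genes tested 0.01. *Scd2* rose by 1.33 ± 0.21 (adjusted p = 0.000108), from 11.99 and 11.89 CPM to 26.5 and 29.7 CPM. *Thrsp* rose by 3.40 ± 0.79 (adjusted p = 0.0023), from 0.705 and 0 CPM to 7.33 and 2.52 CPM. At the *Csn2* share of C8 the *Thrsp* level of C13 would be 8.75 and 3.75 CPM, above what was observed. *Fasn*, at 0.16 ± 0.21, and *Acaca*, at 0.07 ± 0.19, did not pass. *Acly* did not pass either, at 23.9 ± 2.75 CPM in C12 of NP and 17.4 ± 0.0387 CPM in C13. *Olah* was too low to be tested, at 0 UMIs in both NP mice and 2.02 and 1.37 CPM in the G mice.

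From C13 of G to C14 of L, 5 of 9 genes were higher and 4 did not pass, where 48.2% of 12707 genes passed, 24.1% higher and 24.1% lower. The median of the 9 was 0.45 and that of all genes tested 0.04, which total UMI scaling moved to -0.07. *Acly* rose by 1.16 ± 0.15 (adjusted p = 0.000511), from 17.4 CPM in both G mice to 37.6 and 34.8 CPM. *Scd2* rose by 1.15 ± 0.19 (adjusted p = 0.00166), from 26.5 and 29.7 CPM to 49.2 and 66.6 CPM. In both genes the mice of the stages lay apart. *Thrsp* rose by 1.36 ± 0.42 (adjusted p = 0.028) to 9.13 and 14.02 CPM, above its *Csn2* share of 1.64 and 2.23 CPM, but stood at 0.76 without the second G mouse and then missed the threshold. *Scd1*, at 0.50 ± 0.14, and *Srebf1*, at 0.45 ± 0.15, passed narrowly and no longer did in DESeq2 (0.48 and 0.43), with total UMI scaling (0.39 and 0.34), or without the first G mouse (0.40 and 0.41) or the second L mouse (0.44 and 0.41); *Srebf1* did not pass without the second G mouse either (0.47). *Fasn* was at -0.13 ± 0.16, *Acaca* at 0.01 ± 0.17, *Me1* at -0.01 ± 0.18 and *Olah* at 0.24 ± 0.47. All 10 stress genes were higher in C14 than in C13, and their part was not tested.

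The rise in differentiated alveolar cells differed from that in basal cells for 5 of the 9 genes, where 18.6% of 13523 genes passed (8.3% higher and 10.3% lower). It was larger by 2.97 ± 0.24 for *Fasn* (adjusted p = 8.46e-31), 2.23 ± 0.27 for *Acaca* (1.41e-14), 2.0 ± 0.22 for *Scd1* (1.3e-16), 1.91 ± 0.52 for *Olah* (0.0030) and 1.73 ± 0.24 for *Me1* (1.42e-10). In this fit edgeR took the spread almost wholly from all genes pooled, with 1271 prior degrees of freedom against 2 residual ones. The small p-values of this fit therefore do not measure the spread of each gene between mice. In the other fits the prior ones lay between 6.328 and 19.92, also against 2 residual ones. The p-values of those fits thus rest mostly on pooled spread too, though less so. *Acly* was at -0.22 ± 0.23, *Scd2* at 0.37 ± 0.26, *Thrsp* at 0.15 ± 0.30 and *Srebf1* at 0.46 ± 0.24, none past the test, and total UMI scaling turned the last 3 to -0.34, -0.56 and -0.26 and put *Acly* past the test at -0.93. That scaling moved the median of all genes from -0.28 to -0.98 and the split of higher and lower genes from 1123 and 1398 to 544 and 4251. *Olah* did not pass without either G mouse (1.85 and 1.87) or without the mouse as a block (1.84). Between basal cells of PI and NP, both in C12, none of the 7 genes tested passed in edgeR, where 7.49% of 8419 genes did (4.51% higher and 2.98% lower); 1 of the 7, *Acaca* at -1.38, had an unadjusted p (0.040) below the threshold, and DESeq2 called 0 of them. *Fasn* was at 0.81, with 44.8 and 28.2 CPM in PI and 19.04 and 18.3 CPM in NP. The PI sums came from 27 and 53 cells, and the immune markers summed to 851.5 CPM in the first of them.

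Within the mouse, differentiated alveolar cells of gestation stood above their progenitors in most of the genes. In the 2 G mice the ratio of C8 to C10 was 80.0 and 49.3 for *Thrsp*, 27.3 and 22.9 for *Olah*, 4.20 and 4.31 for *Scd1*, 2.48 and 2.10 for *Acly* and 2.47 and 2.01 for *Srebf1*. It was 1.94 and 1.43 for *Fasn*, 1.66 and 1.21 for *Acaca* and 1.00 and 1.10 for *Scd2*. In L the ratio of C9 to C11 was 12.8 and 7.81 for *Fasn*, 18.7 and 18.3 for *Scd1*, 9.41 and 16.9 for *Thrsp* and 5.40 and 3.01 for *Olah*. Side by side, the step from progenitor to differentiated cell was larger in L than in G for *Fasn* and *Scd1* and smaller for *Olah* and *Thrsp*. For *Scd2* the ratio of C9 to C14, the basal cells of L, was 1.07 and 1.01 over all UMIs, and outside the milk protein genes its log2 was 0.95 and 0.79.

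The 9 genes did not rise and fall as 1 unit across the epithelium. Over 35 sums of clusters C1 to C15, which share mice and so are not independent, the closest pair was *Thrsp* and *Olah* (Pearson's r of log2(CPM + 1) 0.88, Spearman's rho 0.72) and the least alike were *Scd2* and *Me1* (r -0.25, rho -0.28). *Scd1* and *Me1*, both high in progenitors after involution, were at r 0.76, while *Srebf1* and *Fasn*, the regulator and its textbook target, were at r 0.28. Among 9761 genes the closest to *Fasn* was *Fkbp11* (r 0.83), followed by *1700012B07Rik* (0.72), *Gpt2* (0.71), *Pdhb* (0.69) and *Drd4* (0.68). For *Olah* they were *1700012B07Rik* (0.91), *Gm2a* (0.88), *Thrsp* (0.88), *Acbd7* (0.87) and the casein gene *Csn1s2a* (0.86). *Srebf1* was most like *Pdcd4* (0.91), *Coq4* (0.85), *3110040N11Rik* (0.85), *Bst2* (0.84) and *Hint3* (0.83). *Me1* was most like *Trf* (0.88), the transferrin gene, *Abhd5* (0.87), *Cd14* (0.86), *Lbp* (0.85) and *Slc28a3* (0.85).

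Other genes of the pathway were followed as lists, with TMM scaling only. Total UMI scaling, which lowered the median change of all genes in C9 against C8 as given above, was not applied to the lists. In differentiated alveolar cells of L against G, 10 of 23 synthesis partners tested were higher and 1 lower, with a median of 0.84, where 9.26% of all genes were higher and 9.16% lower. *Slc25a1*, the carrier that exports citrate from mitochondria, rose by 2.80 ± 0.21 from 24.7 and 20.1 CPM to 92.6 and 76.8 CPM, and the elongase *Elovl5* rose by 2.53 ± 0.21 from 29.6 and 24.6 CPM to 78.6 and 89.0 CPM. The desaturase *Fads2* rose by 1.63 ± 0.27, and the acyl-CoA synthetase *Acsl3* fell by 1.79 ± 0.24. Of the glucose-to-citrate genes, 11 of 27 were higher, among them *Mpc1*, a subunit of the mitochondrial pyruvate carrier (2.20 ± 0.35), the aldolase *Aldoc* (1.93 ± 0.16) and pyruvate carboxylase, *Pcx* (1.65 ± 0.23). Of the NADPH genes other than *Me1*, 1 of 14 was higher, a share near that of all genes, and 3 were lower, with *Idh2* at -0.75 ± 0.19 and *Pgls* at -0.67 ± 0.18. Among 26 genes around SREBP, 3 were higher and 2 lower, shares near those of all genes, with a median of 0.01. *Insig1*, which holds SREBP in the endoplasmic reticulum and is itself a target of it, rose by 2.51 ± 0.35, *Lpin1* by 1.30 ± 0.21 and the AMPK subunit *Prkaa2* by 1.19 ± 0.25, while *Sp1* fell by 2.02 ± 0.47 and *Fbxw7*, a ubiquitin ligase subunit that marks SREBP for degradation, fell by 1.14 ± 0.32. Of 10 triacylglycerol genes 4 were higher, with *Dgat1*, which makes the final bond, at 1.76 ± 0.29.

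In the progenitors of lactation (C11 against C10), where 16% of all genes were higher and 12.9% lower, 6 of 19 partners were higher and 1 lower, led by the acetate-activating *Acss2* (2.22 ± 0.43), *Acsl1* (1.65 ± 0.19) and *Acsl4* (1.40 ± 0.29), and *Acsl3* fell by 0.64 ± 0.18. Glucose-to-citrate genes were higher in 11 of 25, with the aldolase *Aldoa* at 2.91 ± 0.19, the phosphofructokinase *Pfkp* at 2.26 ± 0.28 and pyruvate kinase, *Pkm*, at 2.09 ± 0.20. NADPH genes were higher in 1 of 12, *Taldo1* (1.05 ± 0.16), and lower in 4, among them *Rpia* (-0.78 ± 0.20), *Idh2* (-0.69 ± 0.19) and *Pgls* (-0.61 ± 0.16). In the SREBP list 4 of 23 were higher, a share near that of all genes, and 2 were lower. The higher ones included *Insig1* (1.88 ± 0.42), *Lpin1* (1.67 ± 0.27) and *Mlx* (1.17 ± 0.28). The lower ones were *Scap* (-1.26 ± 0.36) and *Fbxw7* (-1.14 ± 0.25). Triacylglycerol genes were higher in 3 of 7: *Lpin1*, *Gpat4* (1.52 ± 0.26) and *Dgat1* (0.98 ± 0.32).

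Gestation progenitors against nulliparous luminal progenitors (C10 against C6) moved in both directions, as did all genes, of which 24.3% were higher and 23.2% lower. This comparison shares its C10 sums with the one before and its C6 sums with that of luminal progenitors after involution. *Slc2a1*, the glucose transporter GLUT1, fell by 2.47 ± 0.16, *Pfkp* by 2.29 ± 0.23 and *Aldoa* by 1.05 ± 0.14, whereas *Mdh1* (1.25 ± 0.16), citrate synthase, *Cs* (0.98 ± 0.15), and *Mpc2* (0.83 ± 0.12) rose, so that 9 of 25 of the list were higher and 6 lower. Of the NADPH genes 8 of 12 were higher and 1 lower, with *Pgls* at 1.56 ± 0.14, *Idh2* at 1.53 ± 0.14, *Nnt* at 1.24 ± 0.33 and *Rpia* at -0.54 ± 0.14. Partners were higher in 8 of 18 and lower in 4, with *Fads1* (1.93 ± 0.21), *Elovl6* (1.59 ± 0.28) and *Acsl1* (1.59 ± 0.23) on one side and *Elovl7* (-1.40 ± 0.18), *Mid1ip1* (-0.91 ± 0.26) and *Hsd17b12* (-0.53 ± 0.16) on the other. The SREBP list was higher in 5 of 24 and lower in 2, and the triacylglycerol list in 1 and 1 of 8. The SREBP share of higher genes was near that of all genes, as were the partner and glucose-to-citrate shares of lower genes.

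The same lists were followed after involution. In luminal progenitors, where 14.2% of all genes were higher and 13.3% lower, 9 of 21 partners were higher and 2 lower, with *Elovl5* at 2.51 ± 0.25, *Acsl1* at 1.86 ± 0.20, *Acsl3* at 1.36 ± 0.16 and *Elovl7* at -1.02 ± 0.14. Glucose-to-citrate genes were higher in 9 of 26 and lower in 2, with *Aldoc* at 1.71 ± 0.16, the hexokinase *Hk2* at 1.51 ± 0.24 and *Pgk1* at -1.42 ± 0.25. NADPH genes were higher in 6 of 14 and lower in 1. The pentose phosphate enzymes *G6pdx*, *Pgd* and *Taldo1* rose by 1.5 ± 0.24, 1.19 ± 0.14 and 0.84 ± 0.12. Of 25 SREBP genes 1 passed, *Nfyb*, which was lower (-0.65 ± 0.16), and of 9 triacylglycerol genes 1 passed, *Lpin2*, also lower (-0.57 ± 0.18). Hormone-sensing progenitors, with 9.45% of all genes higher and 6.8% lower, had 6 of 21 partners higher and 1 lower, 7 of 26 sugar genes higher and 1 lower, 3 of 14 NADPH genes higher, 2 of 26 SREBP genes lower and 2 of 9 triacylglycerol genes lower; *Acsl1* rose by 2.02 ± 0.23, *Fads1* by 1.89 ± 0.21 and *Aldoc* by 2.24 ± 0.16. Differentiated hormone-sensing cells, with 8.54% of all genes higher and 7.54% lower, had 6 of 21, 6 of 27 and 3 of 16 higher in the first 3 of these lists, and 3 sugar genes and 1 of 27 SREBP genes lower, with *Aldoc* at 1.62 ± 0.18, *Hk2* at -1.05 ± 0.18 and *Taldo1* at 0.59 ± 0.16.

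Basal cells were followed in the same way. From NP to G, 24.6% of all genes were higher and 22.2% lower. There, 4 of 20 partners were higher and 8 lower, with *Acsl3* at 0.86 ± 0.13, *Elovl7* at -2.14 ± 0.22 and *Acsl5* at -1.45 ± 0.20. NADPH genes were higher in 5 of 15 and lower in 3, with *Idh2* at 1.59 ± 0.17 and *Pgd* at -1.30 ± 0.18. The shares of higher partners and of lower NADPH genes were near those of all genes. From G to L, where 24.1% of all genes were higher and 24.1% lower, 8 of 22 partners were higher and 3 lower. *Mid1ip1*, a close relative of *Thrsp*, rose by 2.23 ± 0.15 from 13.4 and 12.4 CPM to 57.3 and 54.9 CPM, *Elovl6* rose by 1.98 ± 0.22, and *Acsl3* fell by 1.54 ± 0.12. Of 27 SREBP genes 8 were higher, a share near that of all genes, and 2 were lower. The higher ones were led by *Srebf2*, the sister gene of *Srebf1* that favours cholesterol synthesis. It rose by 1.53 ± 0.16 from 33.6 and 26.5 CPM to 77.7 and 83.0 CPM. Of 16 NADPH genes 3 were higher and 4 lower, shares near those of all genes. Among the higher ones, *Me3* and *Idh1* rose by 1.85 ± 0.23 and 1.38 ± 0.20. Glucose-to-citrate genes were higher in 8 of 27, a share near that of all genes. Only 1 of them was lower, *Slc2a1*, which fell by 1.43 ± 0.17. Stages were also compared over all cells of a class in place of the main cluster. Each of the 40 changes of the 9 genes that had passed the test passed again, *Fasn* in differentiated alveolar cells among them. Clusters were largely stage-specific, so this added few cells, such as 1 C8 cell in each L mouse. In the PI mice it added 22 and 9 C6 cells to 824 and 1101 C7 cells. The refit is thus close to a repeat of the main test.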

How the data were processed

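Droplet-based single-cell RNA sequencing (10x Chromium 3' chemistry) was run on sorted mammary epithelial cells of 8 mice, 2 for each of 4 stages. The authors made UMI counts per gene and cell with Cell Ranger on mm10, without normalisation between libraries, and the submitters' processing notes name STAR. They deposited count matrices, and an annotation of cells with clusters and the fraction of mitochondrial UMIs. Cells that the authors passed (25010 of 25806, 1 of them without a barcode in the matrices) and their clusters were used as given; a cluster of doublets had been removed by them, and no further doublet caller was run. Each library holds 1 mouse.

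Counts were summed per mouse and cluster over 20 or more cells (51 sums, 35 of them in C1 to C15). Stages were compared on these sums with edgeR 4.0.16 (R 4.3.3) by TMM scaling, filterByExpr (minimum count 10, minimum total 15) and the quasi-likelihood test, with Benjamini-Hochberg adjustment over all genes tested. Differences between changes were fitted with the mouse as a block. Alternatives were DESeq2 1.42.0, no filter, glmTreat, each mouse left out, the replicate number as a block, milk proteins left out, and all cells of a class; scaling to total UMIs was chosen after the data were seen. The fits were tested on simulated data. Shares of cells were also taken after thinning each cell to 1000 UMIs, and promoter sequences are RefSeq's. Python 3.11.15 made the sums and figures.

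The 9 genes and all lists were chosen with earlier results of these data known. Besides the 9 genes, the text names, per list and comparison, genes past the test with a mean of 20 CPM or more in 1 group and mice that did not overlap, up to the 3 largest rises and the 3 largest falls. Genes most alike were found for *Fasn*, *Olah*, *Srebf1* and *Me1* by Pearson's r over genes reaching 20 CPM in 1 sum. The matrices combined over libraries were not used here.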

Additional observations from a re-analysis of the deposited data

Results flagged for a closer look

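The change with stage differed between cell classes for several genes, by a test of the difference itself (edgeR, on the log2 scale). This test does not allow for the forming of the clusters from the same transcripts. Between luminal progenitors and differentiated hormone-sensing cells after involution, the difference was 1.20 for *Fasn*, 1.16 for *Acaca*, 1.34 for *Scd1*, 2.27 for *Olah* and 0.88 for *Me1*, and the fitted 8.03 for *Thrsp* is set against 0 UMIs and gives no size. Between differentiated alveolar cells and alveolar progenitors in lactation it was 3.40 for *Fasn*, 1.62 for *Acaca*, 1.00 for *Acly*, 2.87 for *Scd1*, 2.51 for *Scd2* and -1.82 for *Olah*. Between differentiated alveolar and basal cells in lactation it was 2.97 for *Fasn*, 2.23 for *Acaca*, 2.0 for *Scd1*, 1.91 for *Olah* and 1.73 for *Me1*.

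Clusters outside the epithelium, which entered no comparison, held 3 of the genes at 3 or more times the highest basal level of the same mouse, a limit chosen after the levels were seen. *Thrsp* averaged 52.5 CPM in C19, the endothelial cluster, of G mice (62.4 and 42.5 CPM) and 151 CPM in C19 of L mice (233.9 and 68.5 CPM), where its *Csn2* share was 0.966 and 1.54 CPM and *Olah* was at 0 UMIs in both L mice. Which cells of C19 held *Thrsp* was not tested. *Acly* averaged 68.7 CPM in C19 of G mice. *Scd2* averaged 136 CPM in the fibroblast cluster C18 of G mice and 50.8 CPM in C18 of NP mice.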

How the results depend on the processing

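Of 565 refits of the 57 results of the 9 genes that had passed the test, 476 passed again in the same direction, 89 no longer passed and 0 reversed. Leaving out milk proteins, run for 30 of these results, and taking all cells of a class, run for 40, ended none of the calls among them. The latter added few cells, since clusters were largely stage-specific, and is close to a repeat of the main test. The refit without milk proteins kept TMM scaling, which trims the most extreme genes in any case. It could thus hardly end a call, and it is no measure of the part of milk content. With glmTreat (log2 change over 1, adjusted p under 0.01), 28 of the 40 changes between stages that had passed no longer did. It called 2 genes in luminal progenitors after involution, 1 in hormone-sensing progenitors and 0 in differentiated hormone-sensing cells. It called 2 in gestation progenitors, 5 in differentiated alveolar cells and 0 in basal cells of G and of L. In alveolar progenitors of L *Me1* lost its call. Without a filter 5 were called in alveolar progenitors of L and 4 in basal cells of G. DESeq2 and total UMI scaling, the latter chosen after the data were seen, each called 3 in basal cells of L, and DESeq2 called 2 in the difference after involution. The cause of these shifts was not tested.

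With 1 mouse left out, which assumes that the lone mouse varies like the other group, the counts ranged from 6 to 8 in luminal progenitors after involution, 3 to 5 in hormone-sensing progenitors, 3 to 4 in differentiated hormone-sensing cells, 4 to 5 in gestation progenitors, 8 to 9 in differentiated alveolar cells, 3 to 5 in alveolar progenitors of L, 2 to 3 and 3 to 5 in basal cells of G and L, 0 to 0 in those of PI, 3 to 6 in the differences after involution and between alveolar classes, and 4 to 6 in that with basal cells.

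Same-numbered mice shared only a number: their deviations correlated between -0.0448 and 0.0609. With the replicate block *Acaca* in hormone-sensing progenitors lost its call (0.79) and *Scd1* in basal cells of G passed (0.76), and without the mouse as a block 3 genes differed between alveolar classes.

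Signs turned only among results that had not passed. With each mouse left out in turn, these ran from low to high as follows. In hormone-sensing progenitors *Srebf1* ran from -0.16 to 0.017, and in differentiated hormone-sensing cells *Srebf1* ran from -0.11 to 0.54 and *Me1* from -0.16 to 0.075. In alveolar progenitors of L *Scd1* ran from -0.32 to 0.073. In basal cells of G *Acaca* ran from -0.073 to 0.21 and *Me1* from -0.28 to 0.052, and in those of L *Acaca* ran from -0.13 to 0.16, *Olah* from -0.034 to 0.52 and *Me1* from -0.18 to 0.16. In basal cells of PI *Acly* ran from -0.55 to 0.77. In the difference after involution *Scd2* ran from -0.21 to 1.15 and *Srebf1* from -0.26 to 0.23, and in that with basal cells *Thrsp* ran from -0.24 to 0.31. Total UMI scaling gave 0.032 for *Me1* in differentiated hormone-sensing cells, -0.13 for *Acly* in alveolar progenitors of L, -0.018 and -0.0961 for *Acaca* in basal cells of G and L, -0.028 for *Srebf1* and -0.52 for *Me1* between alveolar classes, and -0.34 for *Scd2*, -0.56 for *Thrsp* and -0.26 for *Srebf1* against basal cells. In basal cells of L DESeq2 gave -0.0075 for *Acaca*, and no filter gave 0.038 for *Me1*.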
